A study of Medicago truncatula with 48 samples.

Results

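Heat-stressed embryos of Medicago truncatula, cultivar A17, were compared between the end of seed filling (S3) and the mature seed (S4). The members are the 6 RNA-seq libraries, of 48 in all, that the labels give as embryo at a day temperature of 26 °C: 3 replicates at S3, taken at 22 days after pollination (DAP), and 3 replicates at S4, taken at 28 DAP. All plants were grown at a day temperature of 20 °C until flowering, when the stressed plants were moved to 26 °C and the standard plants stayed. The step was compared with the same step at standard temperature, from S3 at 36 DAP to S4 at 44 DAP in 3 embryo replicates each, and with the same step in heat-stressed endosperm of 2 replicates per stage. The step therefore lasted 6 days under heat and 8 days at standard temperature. Age and the length of the step thus cannot be told apart from temperature in the comparison of both. The sources differ on the night temperature of the stressed plants, which is not given here. Each embryo replicate pooled 50 or more dissected embryos. The sources used here do not say whether the replicates came from separate plants, and p-values measure the spread between these libraries only.

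The embryo of a legume seed stores reserve proteins in its cotyledons during filling and then dries. During late maturation it acquires longevity, the ability to survive storage in the dry state, and loses much of its photosynthetic capacity as the seed turns from green to yellow. The RNA of a mature seed is the stored mRNA that is present when germination starts. Higher temperature is known to shorten seed development, and samples of 1 stage were younger under heat here.

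None of the 44473 transcript identifiers in the deposited table matched the gene table used here. Transcripts were therefore described by identifier, by chromosome or organelle as the identifier gives it, by length and by level, with no gene names and no pathways. Counts of the 6 libraries totalled between 17975202 and 18732397. Values are given as CPM, the counts scaled to a common library total, or as normalized CPM, in which the TMM method of edgeR first sets the libraries so that most transcripts do not change. Of the 416 transcripts marked for endosperm in the standard libraries, 133 were at 0 in all S3 libraries and 106 at 0 in all S4 libraries. Their summed level was 193 to 209 CPM at S3 and 353 to 435 CPM at S4, against a mean of 131156 CPM in endosperm, so that the S4 libraries held at most 0.331% of the endosperm level. The 802 transcripts marked for seed coat summed to 379 to 420 CPM at S3 and 423 to 565 CPM at S4, at most 0.218% of the seed coat level, and 240 and 220 of them were at 0 in all libraries of the stage. By CPM, both lists were therefore higher in every S4 library than in every S3 library. The TMM factors were 0.871, 0.778 and 0.786 in the S3 replicates and 1.25, 1.24 and 1.59 in the S4 replicates. Divided by these factors, the endosperm sums stay higher in every S4 library, whereas the seed coat sums turn lower in every S4 library. The part of both lists in the results was not tested. In bulk tissue, fewer cells of a type and less RNA per cell cannot be told apart. Only 1 transcript met the same rule for embryo, so the label was checked by the whole profile instead. Each of the 6 libraries had its highest Spearman correlation across transcripts with the S4 embryo at standard temperature, between 0.930 and 0.953, and a lower one with every endosperm and seed coat group. For the S3 libraries the correlations with standard S2 and S3 embryo were nearly as high, between 0.924 and 0.932.

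One library stood apart. The third S4 replicate had 28160 transcripts with at least 1 count, against 24814 and 24854 in the other S4 replicates and 23605 to 24612 at S3. It held 3567 transcripts that were at 0 in both other S4 replicates, with a median of 1 count and 0.0379% of the library in all, whereas the other replicates held 754 and 751 such transcripts. The third S3 replicate at standard temperature showed the same, with 4359 transcripts of its own, and 1086 were in both lists (30.4% and 24.9% of them). The main counts of the heat step and of its difference from the standard step are given also without these libraries. The median SD of log2 CPM over transcripts was 0.18 at S3 and 0.26 at S4 under heat, and 0.34 and 0.14 at standard temperature.

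The mature embryo under heat held a more even mixture of transcripts than the embryo at the end of filling. The 10 most abundant transcripts of each library took 46.7%, 49.8% and 48.8% of the counts in the 3 S3 replicates and 28.3%, 28.3% and 20.6% in the 3 S4 replicates. The groups did not overlap, and the third S4 replicate was the lowest. The mean was 48.4% ± 1.56 at S3 and 25.7% ± 4.46 at S4 (SD, n = 3 each; two-sided exact permutation test p = 0.1, the smallest that 3 against 3 allow, adjusted p = 0.15 over 6 library measures). Without the third S4 replicate the difference was -20.1 percentage points, against -22.7 with it. The same share was 43.3% ± 5.63 at S3 and 24.1% ± 1.66 at S4 at standard temperature (SD, n = 3 each), so the step had the same direction there. The list of the 10 leaders hardly changed, since 8 of the 10 most abundant at S3 were also among the 10 most abundant at S4. The 10 leaders of S3 went together from 46.7% to 49.8% of the counts down to 19.0% to 27.4%.

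**Figure D1:**
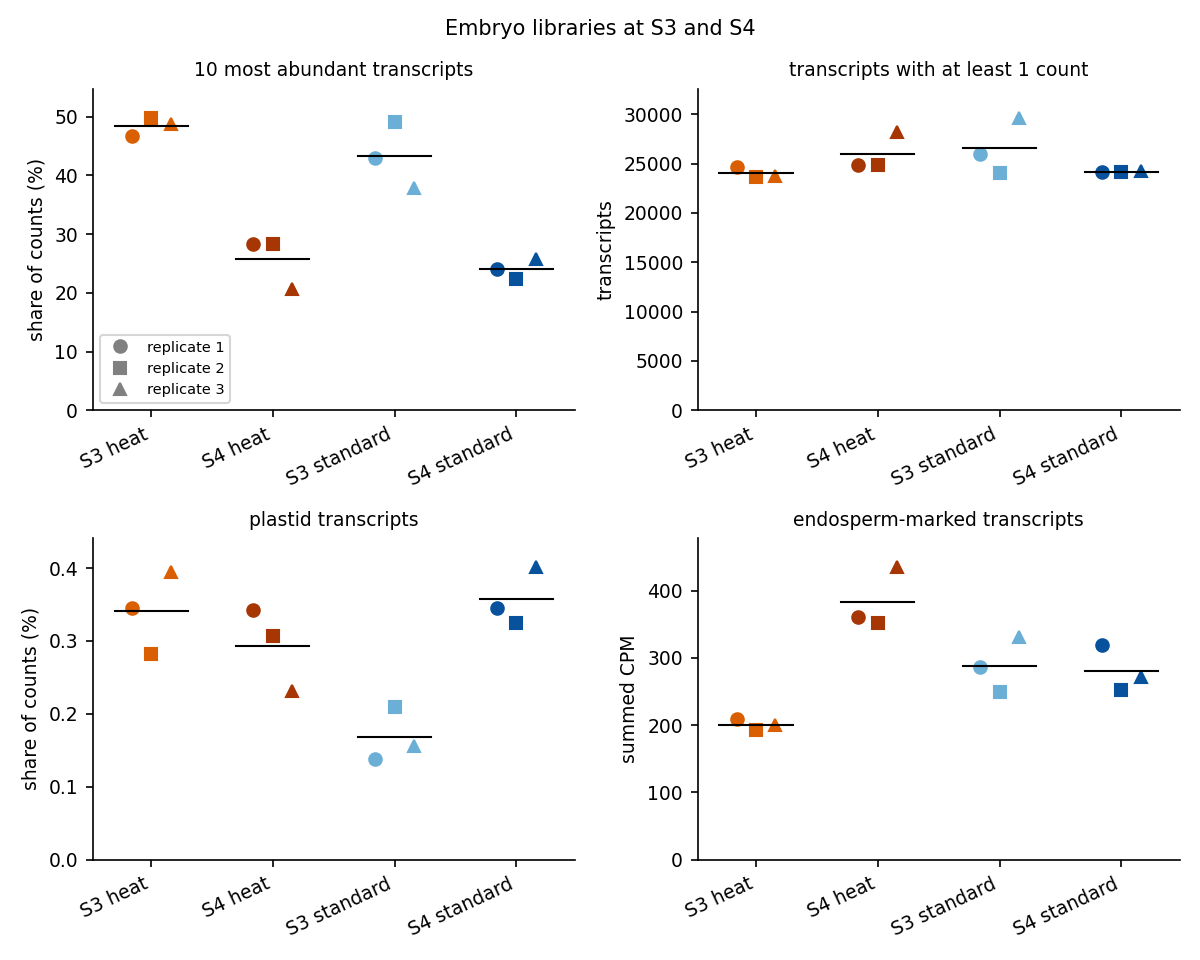
Each point is 1 embryo library (shape, replicate) and each line a group mean, for S3 and S4 under heat and at standard temperature; the vertical axes give percent of counts, number of transcripts or summed CPM and start at 0. The 10 most abundant transcripts take 46.7% to 49.8% of the counts at S3 under heat and 20.6% to 28.3% at S4, and the third S4 heat replicate has the most transcripts of its group and the lowest plastid share.

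The S3 to S4 step under heat was wide. Of 21992 transcripts tested in embryo with edgeR's quasi-likelihood test, 10239 (46.6%) changed at an adjusted p below 0.01 (Benjamini-Hochberg). Of these, 4221 (19.2% of those tested) rose toward S4 and 6018 (27.4%) fell. The median change was 1.11 on the log2 scale among those that rose, and among those that fell its size was 1.34. At least a 2-fold change was reached by 2340 of the risers and 3905 of the fallers, at least 4-fold by 1011 and 1882, and at least 16-fold by 147 and 422. The groups did not overlap in 65.2% of all transcripts tested, in 4208 of the 4221 risers and in 5928 of the 6018 fallers. Without the third S4 replicate, 3275 rose and 5100 fell, and 3164 and 4962 of these were also called with all libraries.

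The balance of rises and falls depended on the scaling. Scaled by library size only, 9638 transcripts rose and 2662 fell, and the share of calls that rose went from 41.2% to 78.4%, as the median change over all transcripts moved by 0.72 on the log2 scale. DESeq2's size factors in the same edgeR fit gave 46.7%. As shares of all counts, the risers took 6.70% to 7.93% of each S3 library and 21.4% to 30.5% of each S4 library, and the fallers 68.4% to 70.7% and 32.5% to 42.8%. The third S4 replicate was the extreme in both, and without it the risers reached 21.6% at most. These shares follow the calls and are a description. Rises and falls below are counted from 0 on the log2 scale under TMM, unless stated. The middle transcript did not lie at 0 on that scale. It lay at -0.12 under heat, at -0.10 at standard temperature and at -0.19 for heat minus standard.

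**Figure D2:**
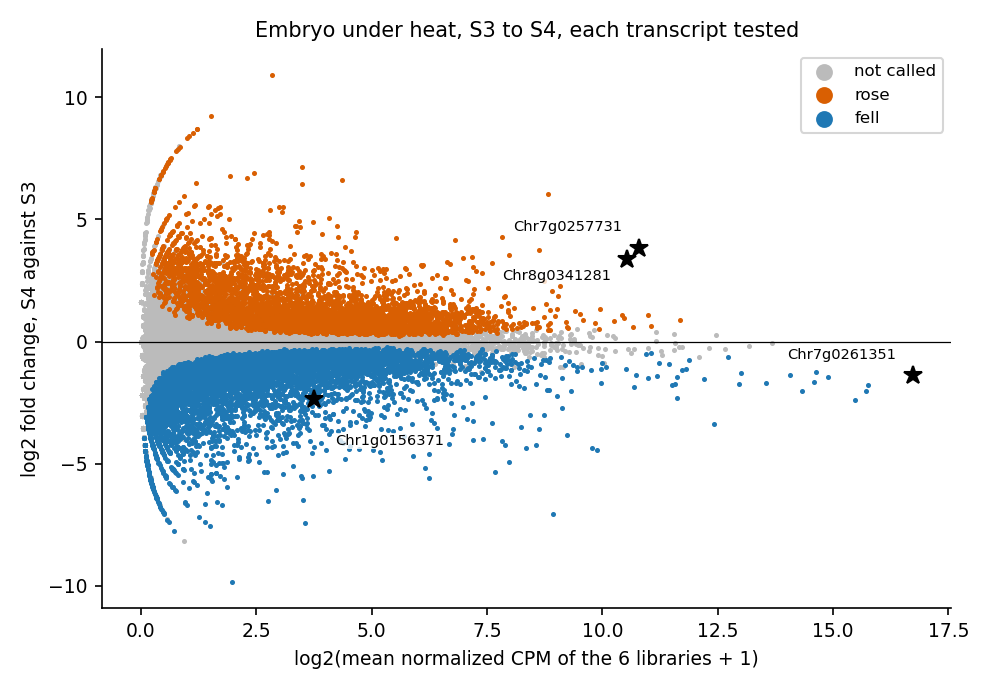
Each point is 1 of the 21992 transcripts tested; the horizontal axis is log2 of the mean normalized CPM over the 6 heat libraries plus 1, and the vertical axis is the log2 fold change of S4 against S3. Transcripts that rose (4221) and fell (6018) are coloured, stars mark the 4 transcripts described one by one, and the most abundant transcripts, at the right, lie below 0.

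Transcripts tested were split by mean level over the embryo libraries into 4 classes of 5498. In the class of highest level 1365 rose and 1980 fell, and in that of lowest level 637 rose and 662 fell. Over all transcripts 19.2% rose and 27.4% fell. Low counts make a small change harder to call, but their part in the numbers of the class of lowest level was not tested. Leaving out the third S4 replicate gave 357 and 444 in the class of lowest level, leaving out the second S3 replicate 377 and 532, and leaving out the third S3 replicate 383 and 527. All 10 of the most abundant transcripts at S3 fell and 0 rose with edgeR, which gave 0 risers also at an unadjusted p below 0.05, as did DESeq2 at its adjusted threshold. Their median log2 fold change was -1.68. They were chosen by a high S3 level in these libraries, so the count is a description. In the standard libraries, which had no part in that choice, 6 of the 10 fell from S3 to S4, where 25.3% of all transcripts fell, and 0 rose (edgeR; 7 and 0 at an unadjusted p below 0.05; DESeq2 7 and 0). Of the 100 most abundant at S3 under heat, 8 rose and 52 fell, and 77 were also among the 100 most abundant at S4.

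The most abundant transcript of the embryo under heat, at S3 and at S4, was MtrunA17_Chr7g0261351, on chromosome 7 (1872 bases). Its level was 140216, 167248 and 162050 normalized CPM in the S3 replicates and 67068, 68126 and 44631 in the S4 replicates, so the groups did not overlap. It fell by 1.38 on the log2 scale (SE 0.26, adjusted p = 0.00011), or 2.61-fold, under TMM. Scaled by library size only, its log2 fold change was -0.67. Under heat it was already high early, with a mean of 65047 normalized CPM at S1 and 165195 at S2, so the fall at S4 brought it back to near the S1 level. At standard temperature it fell by 0.86 from S3 to S4 (SE 0.26, adjusted p = 0.0064). The change under heat minus that at standard temperature was -0.52 (SE 0.36, adjusted p = 0.25) and did not pass the test. In endosperm under heat it fell by 2.02 (SE 0.40, adjusted p = 0.00037), and embryo minus endosperm was 0.64 (adjusted p = 0.40).

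MtrunA17_Chr7g0257731, on chromosome 7 (2399 bases), rose with the smallest adjusted p. Its normalized CPM was 251, 233 and 203 in the S3 replicates and 3409, 3489 and 2996 in the S4 replicates. All S4 values were far above all S3 values, and the transcript went from rank 346 to rank 21 by abundance. The log2 fold change was 3.85 (SE 0.15, adjusted p = 1.7e-13), or 14.4-fold. It was low at the early stages under heat, with 3.97 normalized CPM at S1 and 11.7 at S2. At standard temperature the log2 fold change was 4.35 (SE 0.15, adjusted p = 5.0e-15), and the difference between temperatures, -0.51 (SE 0.19), did not pass the threshold (adjusted p = 0.032). In endosperm under heat it rose by 3.27 (SE 0.14, adjusted p = 4.7e-16), and embryo minus endosperm was 0.58 (adjusted p = 0.015).

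MtrunA17_Chr8g0341281, on chromosome 8 (2696 bases), had the largest gain in normalized CPM after MtrunA17_Chr7g0257731, among the risers that met the conditions for naming. Its normalized CPM was 273, 260 and 249 in the S3 replicates and 2426, 2430 and 3300.5 in the S4 replicates. The third S4 replicate was the highest, and the other 2 were nearly equal. It rose by 3.38 on the log2 scale (SE 0.20, adjusted p = 1.7e-11), and by 3.22 without that replicate. The change at standard temperature was 3.20 (SE 0.20), with a difference between temperatures of 0.18 (SE 0.26, adjusted p = 0.59). It rose also in endosperm under heat, by 2.22 (SE 0.20, adjusted p = 3.1e-09), and the rise in embryo was larger by 1.18 (adjusted p = 0.0011).

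MtrunA17_Chr1g0156371, on chromosome 1 (4151 bases), shared the smallest adjusted p and fell. Its normalized CPM was 20.5, 20.9 and 21.6 in the S3 replicates and 4.46, 3.89 and 4.01 in the S4 replicates. The replicates lay close together at both stages. The log2 fold change was -2.35 (SE 0.09, adjusted p = 1.7e-13). Among the heat stages it was highest at S1, with a mean of 70.8 normalized CPM. At standard temperature its fall was deeper, -3.61 (SE 0.09), and the difference of 1.26 (SE 0.13, adjusted p = 1.2e-06) passed the test. In endosperm under heat it fell by 0.59 only (SE 0.12, adjusted p = 0.00050), and embryo minus endosperm was -1.75 (adjusted p = 1.2e-08). All 4 kept their direction and their call under every alternative in which they were tested, scaling by library size included.

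**Figure D3:**
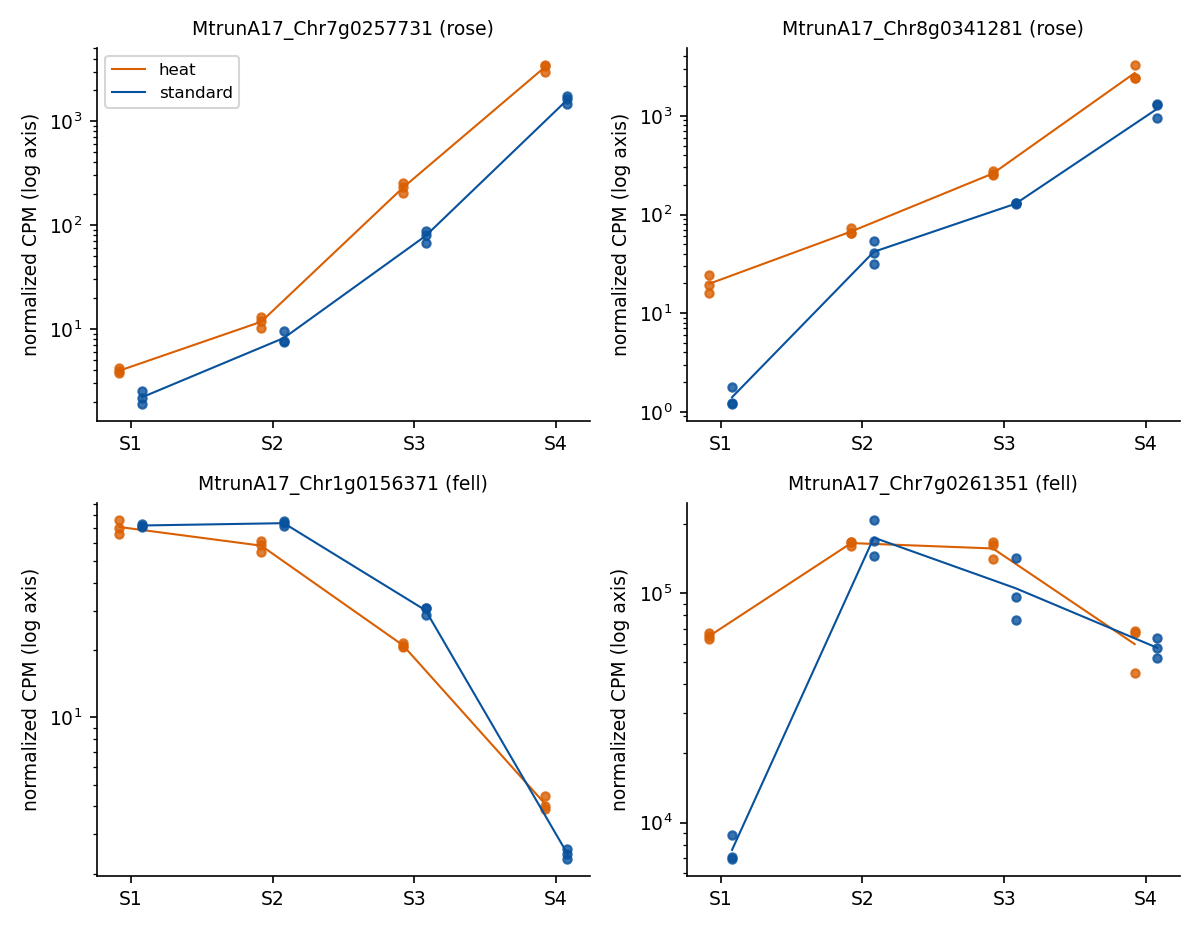
Each point is 1 embryo library and each line joins the means of 3 replicates, at S1 to S4 under heat and at standard temperature; the vertical axis is normalized CPM on a log scale. MtrunA17_Chr7g0257731 and MtrunA17_Chr8g0341281 are highest at S4 at both temperatures, MtrunA17_Chr1g0156371 is lowest at S4, and MtrunA17_Chr7g0261351 is highest at S2 in the means of both temperatures.

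Over the 4 heat stages, most risers had their peak in the mature seed, whereas the fallers had peaked at different times. Of the 4221 risers, 4060 (96.2%) had their highest mean at S4, against 36.1% of all transcripts tested, and 2442 had their lowest at S1. Their median level was 4.10 normalized CPM at S1, 4.99 at S2, 7.46 at S3 and 15.8 at S4. Only 161 risers had been higher at S1 or S2, and their median went from 9.70 at S1 to 3.14 at S3 and 5.75 at S4. Among the 6018 fallers, 2835 (47.1%) were highest at S1, 1842 (30.6%) at S2 and 1341 (22.3%) at S3. Those highest at S1 had a median of 13.8 at S1, 9.17 at S2, 4.71 at S3 and 1.64 at S4, lower at each later stage. Those highest at S3 had 14.9 at S3 and 7.70 at S4. The lowest of the 4 stages was S4 for 87.2% of the fallers. The S3 and S4 values chose these lists, so a riser cannot be highest at S3 nor a faller at S4, and the shares are given with no test.

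Under TMM, the median change of plastid transcripts lay below that of all transcripts under heat and above it at standard temperature. With all libraries fitted, those called fell under heat and rose at standard temperature, in shares near those of all transcripts. Only 7 of the 82 tested were called in both steps in this way. Plastid genes encode parts of the photosystems, the plastid ribosome and related machinery, and their transcripts were recognised by their identifiers. The libraries were made after selection with oligo dT, so the levels are those of plastid RNA that passed this selection. Of 85 in the table, 82 were tested, and 27 fell and 0 rose, where 27.4% of all transcripts fell and 19.2% rose. The 27 are 32.9% of the 82 (edgeR; at an unadjusted p below 0.05, 49 fell and 0 rose; DESeq2 called 28 and 0). Of the 82, 74 had a log2 fold change below 0, as had 12015 of all 21992. In 50 all S4 libraries lay below all S3 libraries, and in 0 above. Of all transcripts tested, 65.2% had no overlap, counting either direction. Their share of all counts was 0.345%, 0.282% and 0.395% in the S3 replicates and 0.342%, 0.307% and 0.232% in the S4 replicates. As shares of counts the groups overlapped (two-sided exact permutation test p = 0.4, n = 3 each). On the normalized scale the median plastid transcript had 13.5, 12.6 and 16.7 CPM at S3 and 9.47, 9.04 and 5.88 CPM at S4, which did not overlap. The median log2 fold change of the 82 was -0.75, against -0.12 for all transcripts. Scaled by library size only it was -0.04, against 0.60 for all, with 1 that rose and 5 that fell of the 82, where 43.8% of all rose and 12.1% fell. The plastid transcripts thus lay 0.63 below the median of all transcripts under TMM and 0.65 below it by library size. Leaving out any 1 of the 6 libraries gave 12 to 27 falls and 0 rises. There were 12 falls without the third S4 replicate and 12 without the third S3 replicate. The former is 14.6% of the 82, where 23.1% of all fell, and for the latter 5348 of 22677 of all fell. With any 1 library left out, the plastid median lay between 0.53 and 0.79 below that of all.

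At standard temperature 21 of the same 82 (25.6%) rose and 0 fell, with a median of 0.78, where 23.4% of all transcripts rose and 25.3% fell (edgeR; at an unadjusted p below 0.05, 46 rose and 1 fell; DESeq2 called 25 and 1). The share of counts there was 0.138%, 0.209% and 0.156% at S3 and 0.345%, 0.325% and 0.401% at S4, with no overlap. The count of risers rested on single libraries. It was 8 without the first S3 standard replicate, where 4356 of 22565 of all rose. Without the third it was 12 (14.6%) with 1 fall, where 19.6% of all rose. Without the second it was 44 (53.7%), where 28.1% of all rose. It was 11 without the third S4 standard replicate, where 4629 of 22657 of all rose. By library size only it was 39 (47.6%), where 23.3% of all rose. The plastid share thus lay below or above that of all, depending on the setting. By share of counts, every heat replicate was above every standard replicate at S3, whereas the ranges overlapped at S4. The change under heat minus that at standard temperature was lower for 48 of the 82 and higher for 0, where 18.7% of all transcripts were lower and 13.7% higher (edgeR; at an unadjusted p below 0.05, 56 lower and 0 higher; DESeq2 48 and 0). By library size only 28 (34.1%) were lower, where 4.41% of all were. Without the third replicates of S4 under heat and S3 at standard temperature 25 (30.5%) were lower and 0 higher. There 9.24% of all were lower. In endosperm under heat, where 11.7% of all transcripts changed, 0 of the 82 rose and 0 fell with edgeR at the adjusted threshold (unadjusted p below 0.05, 1 and 8; DESeq2 was not run on that step alone). Of 36 mitochondrial transcripts tested, 4 (11.1%) fell and 0 rose in embryo under heat, where 27.4% of all fell and 19.2% rose (edgeR; 13 and 0 at an unadjusted p below 0.05; DESeq2 4 and 0). Only 2 (5.56%) fell without the third S4 replicate, where 23.1% of all fell. Without the first S3 replicate 2 fell too, where 5366 of 22679 of all fell. On chromosomes 1 to 8, between 18.2% and 21.3% of transcripts rose and between 23.8% and 28.7% fell, near the values for all transcripts.

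Risers were more frequent among long transcripts than among short ones in the heat step, while fallers differed less. Transcripts tested were split into 3 classes of nearly equal size by length, at 1398 and 2202 bases. In the longest class 2109 of 7330 rose (28.8%) and 1712 fell (23.4%), and in the shortest class 851 of 7338 rose (11.6%) and 2085 fell (28.4%). A longer transcript gathers more counts at the same number of molecules, which makes a change easier to call. The median log2 fold change lay 0.24 above that of all transcripts in the longest class and 0.18 below it in the shortest, and by library size 0.27 above and 0.20 below. The median length was 2199 bases among risers, 1692 among fallers and 1676 among transcripts not called. In single libraries, the median log2 CPM of the longest class exceeded that of the shortest by 1.84, 1.86 and 1.76 in the S3 replicates and by 1.97, 2.02 and 2.21 in the S4 replicates. All S4 values lay above all S3 values, and the third S4 replicate was the highest. Without it the longest class had 1615 risers (22.0%) and 1537 fallers (21.0%), where 14.9% and 23.1% of all rose and fell. The median of the class then lay 0.16 above that of all.

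At standard temperature the step went the other way, from 2.29, 2.04 and 2.26 at S3 to 1.93, 1.85 and 1.91 at S4. There the shortest class had 1751 risers and 1230 fallers, and the longest 1452 and 2492, against 23.4% rising and 25.3% falling over all transcripts. Without the third S3 standard replicate these were 1388 (18.9%) and 1002 (13.7%) in the shortest class and 1277 (17.4%) and 2023 (27.6%) in the longest. Over all transcripts 19.6% then rose and 20.8% fell. The change under heat minus that at standard temperature was higher for 1788 (24.4%) and lower for 669 (9.13%) in the longest class. In the shortest it was higher for 547 (7.45%) and lower for 1869 (25.5%). Over all transcripts 13.7% were higher and 18.7% lower. Without the third replicates of S4 under heat and S3 at standard temperature it was 837 and 315, and 227 and 925. These are 11.5% and 4.32%, and 3.14% and 12.8%, where 6.26% of all were higher and 9.24% lower. By library size only it was 3477 (47.4%) and 89 (1.21%) in the longest class and 907 (12.4%) and 545 (7.43%) in the shortest. Over all transcripts 26.9% were then higher and 4.41% lower. The balance of the shortest class thus turned, but its share of higher calls stayed below that of all, and its share of lower calls above. Its median stayed below that of all transcripts, by 0.43 against 0.39 under TMM. In endosperm under heat the longest class lay 0.04 above the median of all and the shortest 0.04 below it. The libraries with the largest lead of long transcripts, the third S4 replicate under heat and the first and the third S3 replicates at standard temperature, also had the largest TMM factors of their groups (1.59, and 1.36 and 1.51, against 1.24 to 1.25 and 0.90 in the others). The other groups did not show this. At S3 under heat the second replicate had the largest lead, 1.86, and the smallest factor, 0.78. At S4 at standard temperature the second replicate had the smallest lead, 1.85, and the largest factor, 1.26. The part of library composition or RNA quality in the length pattern was not tested.

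**Figure D4:**
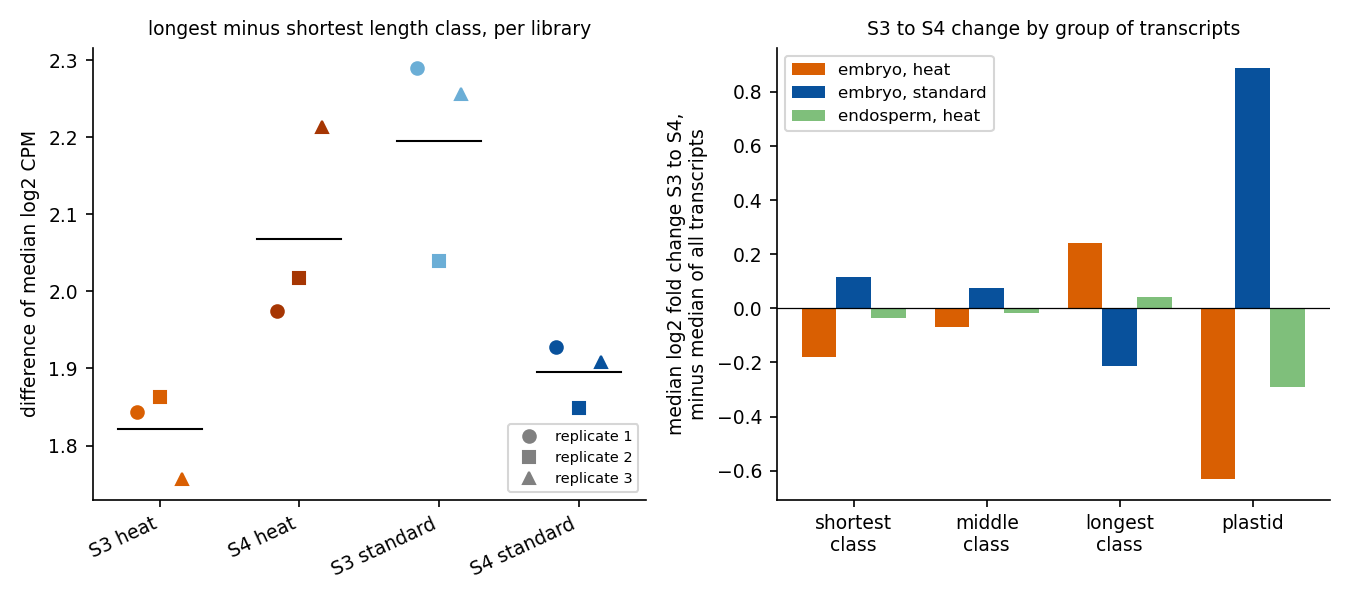
Left, the median log2 CPM of the longest class of transcripts minus that of the shortest class in each embryo library (shape, replicate; line, group mean; the axis does not start at 0). Right, bars give the median log2 fold change from S3 to S4 of each group of transcripts minus that of all transcripts, for embryo under heat, embryo at standard temperature and endosperm under heat; the longest class is 0.24 above and the plastid group 0.63 below in embryo under heat.

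At standard temperature, 10702 of the same 21992 transcripts (48.7%) changed from S3 to S4, with 5142 rising (23.4%) and 5560 falling (25.3%). Without the third S3 standard replicate 8897 changed, 4317 rising and 4580 falling. The same transcripts rose at both temperatures in 2089 cases, 49.5% of the heat list and 40.6% of the standard list. They fell at both in 3163 cases, 52.6% of the heat list and 56.9% of the standard list. A further 1683 risers and 2619 fallers under heat were not called at standard temperature, which does not show that they did not change there. A rise under heat with a fall at standard temperature was called for 449, and the opposite for 236. Across transcripts, which are not replicates, the log2 fold changes at both temperatures had a Pearson correlation of 0.41 and a Spearman correlation of 0.37, and 61.7% had the same sign.

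The difference between the steps was tested by the interaction of stage and temperature. It was called for 7124 transcripts (32.4%), of which 3011 (13.7%) had a change that was more positive under heat and 4113 (18.7%) one that was more negative. Among the 3011, 2336 were estimated to go up under heat and down at standard temperature, with medians of 1.27 and -1.16. Among the 4113, 2304 were estimated to go down under heat and up at standard temperature, with medians of -0.50 and 0.58, and 1150 went up at both but less under heat. Of the 2336 and the 2304, 449 and 236 were called in both steps. Of all transcripts tested, 61.7% had the same sign in both. The difference chose these lists, which favours opposite directions, so their directions and medians are a description. The count of 7124 moved with single libraries, between 5042 without the third S3 standard replicate and 10235 without the second. Without the third replicates of S4 under heat and S3 at standard temperature, an alternative chosen after the data were seen, 3385 were called, 1366 more positive and 2019 more negative under heat. By library size only, 5923 were more positive and 969 more negative. DESeq2's size factors in the same edgeR fit gave 3536 and 3207, and a minimum of 2-fold gave 2527 and 2291. The balance between both directions therefore depended on the setting. In the class of lowest level 742 were more positive and 129 more negative, and 219 and 44 without the third replicates of S4 under heat and S3 at standard temperature. The class of highest level went the other way, with 481 and 2346, and 278 and 1208 without those 2 libraries. By library size only, it had 1409 and 654. The class of lowest level moved with single libraries too, from 423 and 81 without the third S4 heat replicate to 1042 and 199 without the second S3 standard replicate. The class of highest level went from 367 and 1700 without the third S3 standard replicate to 587 and 3352 without the second.

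**Figure D5:**
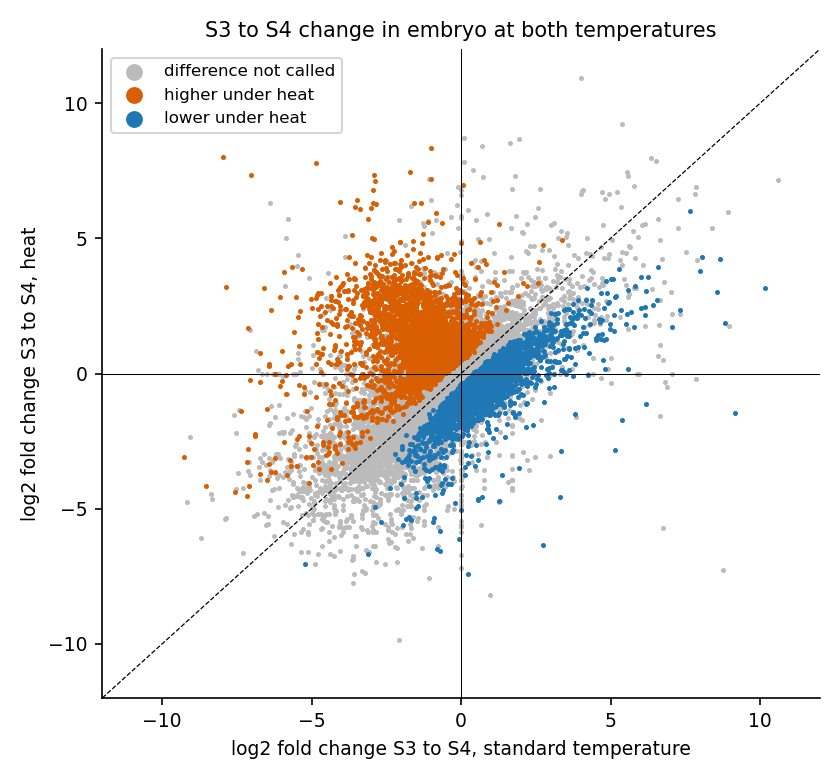
Each point is 1 of 21992 transcripts, with its log2 fold change from S3 to S4 at standard temperature (horizontal) and under heat (vertical); the dashed line marks equal change. Coloured points had a change that differed between temperatures, 3011 more positive (above the line) and 4113 more negative (below it) under heat.

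Endosperm, the thin living layer that surrounds the embryo in the mature Medicago seed, changed less often over the same days. Of 27952 transcripts tested, 3262 (11.7%) changed from S3 to S4 under heat, 1481 rising (5.3%) and 1781 falling (6.37%), with 2 libraries per stage against 3 in embryo. Of the 4221 transcripts that rose in embryo, 1010 rose in endosperm (23.9% of the embryo list and 68.2% of the endosperm list) and 17 fell. Of the 6018 that fell in embryo, 1342 fell in endosperm (22.3% and 75.4%) and 27 rose. The endosperm list includes transcripts that were not tested in the embryo fit. Of the 21990 tested in both fits, 1337 rose and 1632 fell in endosperm. The median change in endosperm was 0.34 for the embryo risers and -0.50 for the embryo fallers. The change differed between both tissues for 2646 of 27952 transcripts (9.47%), 1162 more positive in embryo (4.16%) and 1484 more negative (5.31%). Of the 2614 of these that were also tested in the embryo fit, 1672 went the same way in both tissues and further in embryo, 61 the same way and further in endosperm, and 881 in opposite directions by their estimates. The count ranged from 1324 to 3125 when single libraries were left out, was 1677 without the third S4 embryo replicate, and was 821 when only the 10 libraries compared were fitted. By library size only, 6602 were more positive and 445 more negative in embryo.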

How the data were processed

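RNA of dissected embryos was sequenced by the authors as reads of 50 bases on the BGISEQ-500 platform and quantified with Salmon on the A17 transcriptome. The paper states that mRNA was enriched by depleting rRNA and selecting with oligo dT. How far this kept plastid and mitochondrial transcripts was not tested. The authors deposited estimated counts per transcript for 48 libraries, unnormalized and with replicates separate, with transcript lengths beside them. Estimated counts were rounded for the tests, and CPM and shares were computed from the deposited values. Salmon divides reads among similar transcripts, so counts of near-identical copies are uncertain, and counts of reads amplified without molecular identifiers are not counts of molecules.

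All 24 embryo libraries were fitted with 1 mean per stage and temperature in edgeR 4.0.16 (R 4.3.3, limma 3.58.1) after filterByExpr (minimum count 10, minimum total 15) and TMM, and tested by quasi-likelihood. A call is a Benjamini-Hochberg adjusted p below 0.01, with no minimum fold. Differences between tissues used 1 fit of the 40 embryo and endosperm libraries. Standard errors were derived from the F statistic. DESeq2 1.42.0 was an alternative. Measures of whole libraries were compared by two-sided exact permutation tests. The scripts were tested on simulated data.

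Alternatives were RLE size factors or library size only, other filters and thresholds, only the libraries compared, the 20 most abundant transcripts removed, a replicate block, DESeq2, and leaving out each library. Leaving out both libraries with the most transcripts detected, and the counts of transcript groups without single libraries, were chosen after the data were seen.

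The transcripts, groups and lists were chosen with earlier results of these data known. Transcripts named are those called in the heat step with a log2 fold change of at least 1 in size, a mean of at least 10 CPM and no overlap of replicates (841 risers and 840 fallers): of each direction, the smallest adjusted p and the largest difference in normalized CPM, or the next in rank where the same transcript came first in both. Marked transcripts had a mean of at least 20 CPM in the standard libraries of a tissue and under a 20th of that in every standard library of embryo, or, for embryo, of the other tissues. Gene lists by name and sequences were not used here.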

Additional observations from a re-analysis of the deposited data

Results flagged for a closer look

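The change from S3 to S4 in embryo differed between heat and standard temperature for 7124 transcripts, by a test of the difference itself (edgeR, adjusted p below 0.01). Among the transcripts named, this held for MtrunA17_Chr1g0156371, with a difference of 1.26 on the log2 scale (SE 0.13, adjusted p = 1.2e-06), its fall being deeper at standard temperature.

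The change under heat differed between embryo and endosperm for 2646 transcripts by the same kind of test. MtrunA17_Chr8g0341281 rose more in embryo, by 1.18 on the log2 scale (adjusted p = 0.0011). MtrunA17_Chr1g0156371 fell more in embryo, with a difference of -1.75 (adjusted p = 1.2e-08).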

How the results depend on the processing

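The S3 to S4 step under heat gave 8375 to 9739 calls when each library was left out. It gave 6245 calls with at least a 2-fold change (2340 rose, 3905 fell), 3966 falls with at least 10 counts in every library (13557 transcripts tested), and 9638 rises and 2662 falls by library size only, whose median differs by construction. At standard temperature it gave 6450 calls (2953 falls) with only the libraries compared, and 6377 (2349 rises) with at least 2-fold. For heat minus standard, the calls ranged from 5042 to 10235 when libraries were left out (2115 to 4060 more positive, 2901 to 6175 more negative). They were 3303 with only the libraries compared (2052 more positive, 1251 more negative). By library size only they were 5923 and 969, with RLE size factors 3536 and 3207, and with at least 2-fold 2527 and 2291. The balance toward more negative changes thus turned in each of these settings. They were 3385 (1366 and 2019) without both libraries with the most transcripts detected.

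For embryo minus endosperm, the calls ranged from 1324 to 3125 when libraries were left out (491 to 1813 more positive, 833 to 1312 more negative); an endosperm group then has 1 library, assumed to vary like the others. They were 7047 by library size only (6602 and 445), 5378 at an adjusted p below 0.05 (2696 and 2682), 821 with only the libraries compared (454 and 367), 2520 more positive and 807 more negative with no filter, and 764 more positive with at least 2-fold. The mitochondrial share, S4 minus S3, ranged from -0.00067 to 3.0e-05 percentage points when libraries were left out, positive without the first S3 replicate. Replicate numbers did not pair the samples, as the deviations of same-numbered S3 and S4 heat libraries correlated at -0.12, 0.10 and -0.07. With a replicate block the calls were 9996 under heat, 10455 at standard temperature, 6839 for heat minus standard and 2562 for embryo minus endosperm. The cause of these shifts was not tested where none is given. Totals of 17975202 to 18732397 counts limit transcripts of low level, and 3 libraries per group limit small changes.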

Other observations

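Few transcripts were switched on or off. In embryo under heat, 26 transcripts were at 0 in all S3 libraries and at 10 or more counts in all S4 libraries, with a median of 26.2 counts at S4, and 2 showed the reverse. Without the third S4 replicate the numbers were 28 and 12. Of the 26, 7 were also at 0 in all S1 and S2 libraries under heat, 6 were at 0 in all S3 libraries at standard temperature, and 9 had at least 10 counts in all S4 libraries at standard temperature. These lists were chosen by the counts and were not tested.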
